A study of Mus musculus with 12 samples.

Results

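This account describes 43 genes of the extracellular matrix in mouse abdominal fat pads: collagens, laminins, proteoglycans, elastic fibre proteins, matricellular glycoproteins and the enzymes and chaperones that process collagen. The members were a named list of 45 genes, matched by gene symbol to the array's annotation, and 43 of them had probe sets of their own among 18194 measured genes. Fbn1 and Loxl2 were not analysed here, because no probe set was annotated to either gene alone. The 43 genes were read by 95 of the array's 45101 probe sets. All were female mice on a C57BL/6 background, either wild type or P47KO, which lack p47phox, the product of Ncf1 and an organising subunit of the phagocyte NADPH oxidase. From postnatal day 28 each genotype was fed a casein diet or a high fat diet for 13 weeks, and fat pad RNA was hybridised as 12 pools, 3 for each of the 4 combinations of genotype and diet. The number of animals in a pool was not given, the deletion was not stated to be limited to any cell type, and p-values here measure the spread between pools. The series asked how loss of p47phox alters the response of female fat to a high fat diet.

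Fat depots hold a scaffold made mostly by fibroblasts and adipocyte progenitors. Fibrillar collagens give it tensile strength, a basement membrane of type IV collagen, laminins and nidogens wraps each adipocyte and capillary, and elastic fibres surround vessels and septa. Small leucine-rich proteoglycans set fibril spacing, and matricellular proteins tune how cells attach. During diet-induced expansion of fat this scaffold is remodelled, and excess collagen is known as adipose fibrosis.

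Each value below is a log2 value centred on the median of the 12 arrays for its probe set, averaged over the probe sets of a gene, so 0 is the middle pool and a difference of 1 is a doubling. Such values compare pools for a gene and give no level that could be set against another gene. For the same reason whether adipocyte markers were above background could not be read. Ncf1 lay between 0.07 and 0.85 in the 6 wild type pools and between -0.29 and -0.19 in the 6 null pools, with no overlap. Of the whole array, 5.92% of genes passed the threshold (limma, Benjamini-Hochberg adjusted p under 0.05 over all genes) between genotypes on the high fat diet, 0% on casein, and 7.52% with the genotype difference averaged over both diets. The matrix genes varied more across the pools than most: their span, highest minus lowest pool, had a median of 0.94 against 0.50 for all genes, and 18 of 43 (41.9%) spanned more than 1 against 15.1% of all genes. Genes of low signal could not be removed from either set, so the spans are not compared at like signal.

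**Figure D1:**
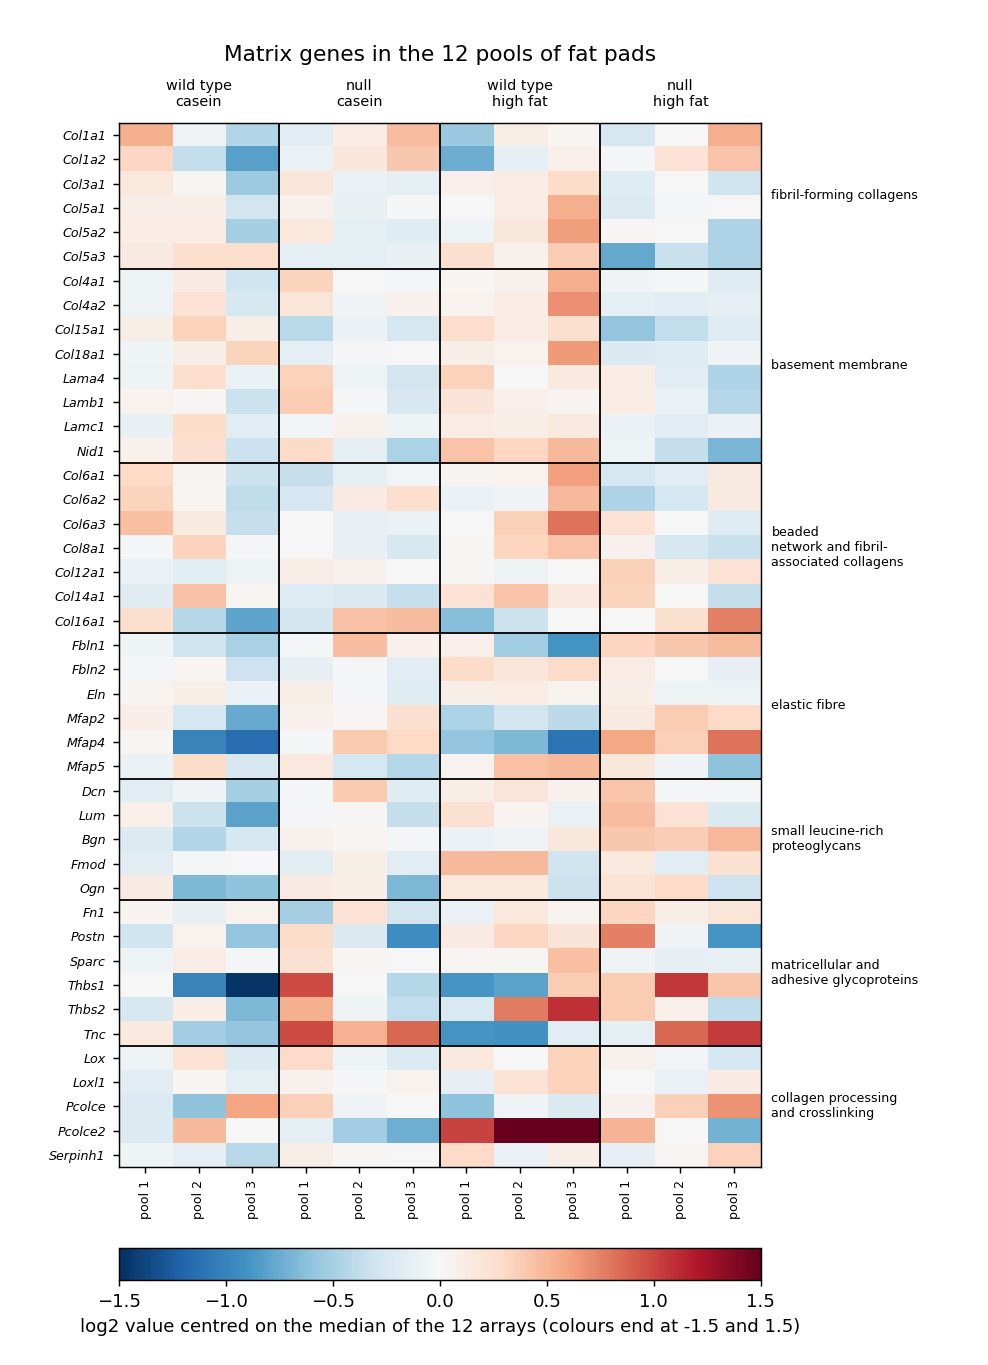
Heat map of the centred log2 values of 43 matrix genes (rows, grouped by role) in the 12 pools (columns, 3 a group); red is above and blue below the median of the 12 arrays, and colours end at -1.5 and 1.5. Pcolce2 shows the widest span (3.63), with its highest values in the 3 wild type pools on the high fat diet.

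On the high fat diet, null fat pads had lower Col5a3, Col15a1 and Pcolce2 and higher Mfap4, Fbln1 and Bgn than wild type. The 6 genes are 14% of the 43, beside 5.92% of all genes. The 3 that rose stand beside 3.21% of all genes that rose, and the 3 that fell beside 2.71% that fell. The other 37 genes did not pass, among them Col1a1, Col1a2 and Col3a1, the chains of the main fibrillar collagens. At an unadjusted p under 0.05 there were 17 members, 8 higher and 9 lower, beside 24.9% of all genes. The null pools lay wholly above or below the wild type pools for 21 members: 9 higher, beside 14.9% of all genes, and 12 lower, beside 17.3%, which together stand beside 32.2%. The difference was above 0 in 15 of 43 members, beside 43.4% of all genes, and its median was -0.25 on the log2 scale against -0.03 for all genes. In RNA from whole tissue, fewer cells of a type and less RNA per cell cannot be told apart.

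These counts moved with single pools. Shares of all genes called in those fits are not given here. A shift particular to the matrix genes is therefore not shown. Without wild type high fat pool 3, null high fat pool 2 or null high fat pool 3, 0 members passed in limma, with 13, 11 and 12 at an unadjusted p under 0.05. Without wild type high fat pool 2, Col5a3 alone passed, and without wild type high fat pool 1 or null casein pool 2, 3 members did. Of the 12 fits that each left out 1 pool, Col5a3 was called in 9, Col15a1 and Mfap4 in 7, Bgn and Pcolce2 in 6 and Fbln1 in 2. In the alternatives run, the 9 genes whose values are given for every pool below changed sign in 0 of the genotype comparisons.

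**Figure D2:**
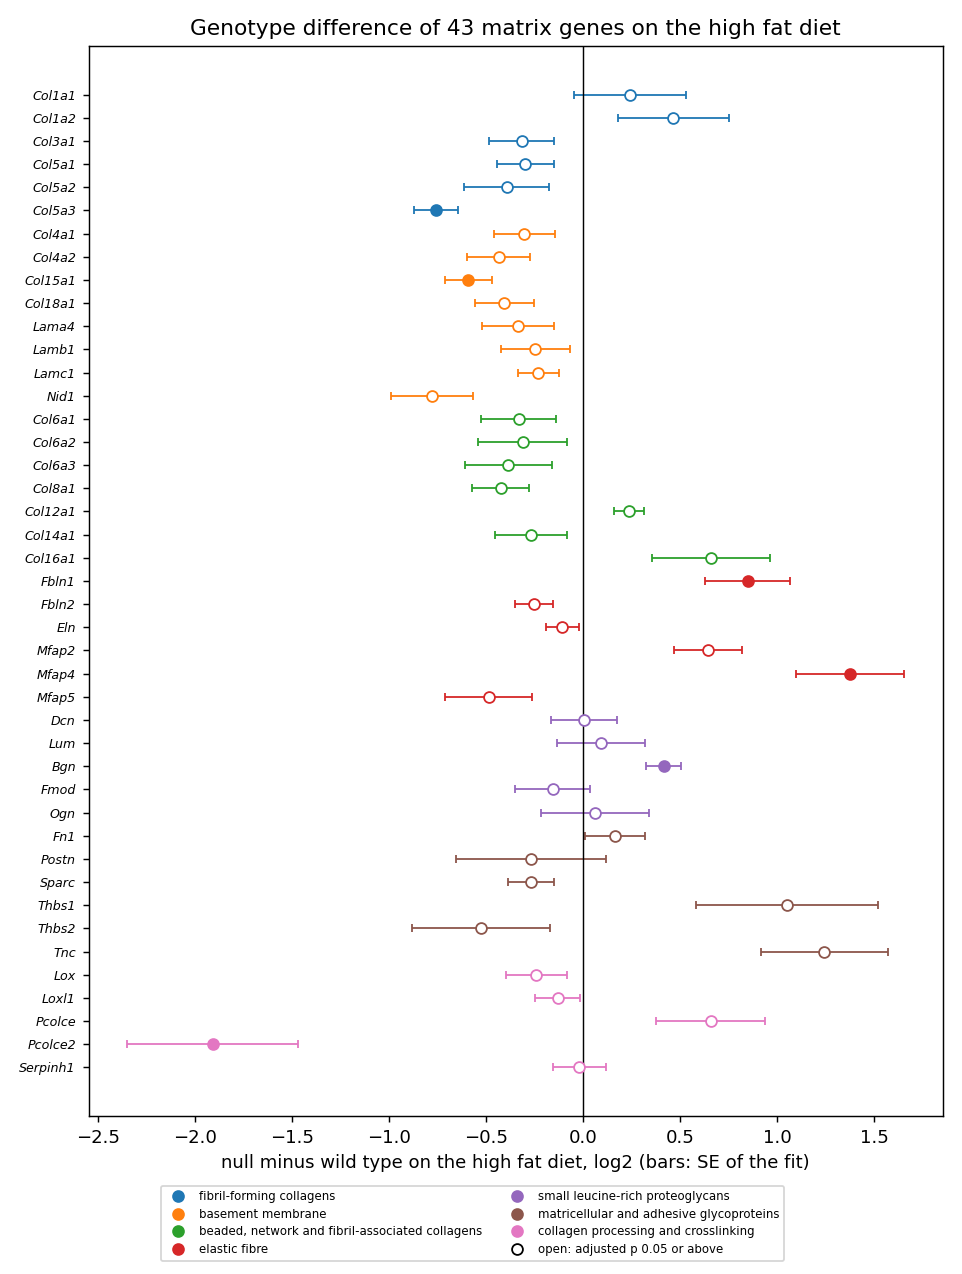
Genotype difference on the high fat diet (x axis, null minus wild type, log2, with the SE of the fit) for 43 matrix genes (y axis, coloured by role); filled points have an adjusted p under 0.05. The filled points are Col5a3, Col15a1 and Pcolce2 below 0 and Fbln1, Mfap4 and Bgn above 0, and all 8 basement membrane genes lie below 0.

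The sequence before the start site is shown for 4 of these 6 genes, since they moved in opposite directions: Col5a3 and Pcolce2 fell and Bgn and Fbln1 rose. Mfap4 had no entry in the table used, and the entry of Col15a1 lies inside the gene. They are RefSeq sequences of GRCm38.p6, 5′ to 3′ on the gene's strand, up to 250 bases before the start: Col5a3 at chr9:20815118-20815317 on the minus strand, cut to the 200 bases outside the longest annotated transcript, and on the plus strand Pcolce2 at chr9:95637378-95637627, Bgn at chrX:73483351-73483600 and Fbln1 at chr15:85205699-85205948. Capitals mark a CCAAT box (CCAAT, or ATTGG on the other strand) or a GC box (GGGCGG, or CCGCCC on the other strand), elements that many promoters carry.
Col5a3: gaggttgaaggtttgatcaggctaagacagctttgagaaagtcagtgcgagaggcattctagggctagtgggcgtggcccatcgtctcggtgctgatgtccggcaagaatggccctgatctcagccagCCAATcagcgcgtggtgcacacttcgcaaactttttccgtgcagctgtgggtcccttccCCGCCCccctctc
Pcolce2: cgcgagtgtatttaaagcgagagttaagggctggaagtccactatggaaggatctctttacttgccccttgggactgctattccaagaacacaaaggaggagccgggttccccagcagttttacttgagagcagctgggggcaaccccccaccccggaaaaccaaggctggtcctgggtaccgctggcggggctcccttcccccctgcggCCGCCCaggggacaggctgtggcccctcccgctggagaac
Bgn: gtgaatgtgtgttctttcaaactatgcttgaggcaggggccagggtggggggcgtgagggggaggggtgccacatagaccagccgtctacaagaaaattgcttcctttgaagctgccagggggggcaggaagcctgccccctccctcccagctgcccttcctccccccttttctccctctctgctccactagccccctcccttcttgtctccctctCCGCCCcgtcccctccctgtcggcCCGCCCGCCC
Fbln1: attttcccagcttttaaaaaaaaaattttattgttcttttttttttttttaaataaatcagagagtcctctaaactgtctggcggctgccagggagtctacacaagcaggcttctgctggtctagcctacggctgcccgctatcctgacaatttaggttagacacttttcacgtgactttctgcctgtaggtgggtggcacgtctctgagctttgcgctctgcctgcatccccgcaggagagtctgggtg
The stretch of Col5a3 held 1 CCAAT box and 1 GC box, that of Pcolce2 1 GC box, that of Bgn 3 GC boxes of which the last 2 overlap, and that of Fbln1 neither. Their GC content was 58.0%, 61.2%, 64.4% and 46.4%, against a median of 52% over all 250-base stretches in the table. Of 28 measured members with an entry, each read over its full 250 bases, 17 (60.7%) held a GC box, beside 32.9% of all 27025 entries. The 28 include the entry of Col15a1 that lies inside the gene, and the bases cut from Col5a3 were counted too. A CCAAT box was in 9 members (32.1%, beside 34.5% of all) and TATAAA on either strand in 4 (14.3%, beside 13%). These matches describe the letters and say nothing of what binds there.

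Among the 6 fibril-forming collagen chains, Col5a3 fell and the other 5 did not pass. Col5a3 encodes the alpha-3 chain of type V collagen, a minor collagen that sits within fibrils and limits their diameter. Its centred log2 values were 0.14, 0.26 and 0.27 in wild type pools 1, 2 and 3 on casein and -0.13, -0.15 and -0.12 in the null pools on casein. Under high fat feeding they were 0.24, 0.07 and 0.39 in wild type pools and -0.77, -0.33 and -0.47 in null pools. All 6 null pools lay below all 6 wild type pools, and the null pools on the high fat diet were the 3 lowest of all. Group means were 0.23 ± 0.16 (SD, n = 3) in wild type pools and -0.53 ± 0.23 (SD, n = 3) in null high fat pools, a difference of -0.76 ± 0.11 (SE), or 1.69-fold lower, with an adjusted p of 0.0165 in limma. Both of its probe sets were lower in the null pools, by -1.10 and -0.41.

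The major fibrillar chains gave no call. Col1a1 and Col1a2 encode the chains of type I collagen, the bulk of connective tissue. Between high fat groups Col1a1 differed by 0.24 ± 0.29 (SE; 95% interval -0.40 to 0.88) and Col1a2 by 0.47 ± 0.28 (-0.17 to 1.09), with adjusted p of 0.661 and 0.351. Col3a1, which encodes type III collagen and is laid down with type I, differed by -0.32 ± 0.17 (-0.69 to 0.06), with an adjusted p of 0.28. These intervals allow changes in either direction. For Col3a1, and for Col5a1, a further type V chain, the 3 null pools nevertheless lay below the 3 wild type pools. Across the 12 pools Col1a1 minus Col1a2 stayed between -0.22 and 0.37. The difference Col5a3 minus Col5a1 had a mean of 0.25 in wild type and -0.10 in null casein pools. On the high fat diet its means were 0.01 and -0.45. Col5a3 was already apart between genotypes, so this pair difference only describes the pools. Col3a1 and Col5a2 are neighbours on chromosome 1, and their difference ran from -0.36 to 0.16 over the pools.

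All 8 basement membrane genes were below 0 for null minus wild type on the high fat diet, with a median of -0.37, beside 43.4% of all genes above 0, and Col15a1 passed the test. In 6 of the 8 (Col4a1, Col4a2, Col15a1, Col18a1, Lamc1 and Nid1) the null pools lay below every wild type pool, beside 17.3% of all genes. Col15a1 encodes a collagen that links the basement membrane of vessels, muscle and fat cells to the fibrils beneath it. It read 0.08, 0.35 and 0.09 in wild type pools on casein, -0.41, -0.08 and -0.25 in null casein pools, 0.26, 0.11 and 0.24 in wild type high fat pools, and -0.60, -0.37 and -0.19 in null high fat pools. As with Col5a3, the 6 null pools were the 6 lowest. The difference on the high fat diet was -0.59 ± 0.12 (SE, n = 3 pools a group), or 1.51-fold lower, with an adjusted p of 0.0292. It rests on 1 probe set.

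Nid1, which encodes the nidogen that joins laminin to type IV collagen, came next. Its 3 wild type pools on the high fat diet read 0.42, 0.31 and 0.49 and the null pools -0.08, -0.36 and -0.68. They did not overlap, but the difference of -0.78 ± 0.21 (SE) had an adjusted p of 0.0555. Col4a1 and Col4a2 encode the chains of the commonest type IV collagen and lie head to head on chromosome 8. Over the 12 pools Col4a1 minus Col4a2 ran from -0.14 to 0.16, with a median size of 0.07, so the pair kept step in every pool. On the high fat diet they differed between genotypes by -0.30 ± 0.16 and -0.43 ± 0.16 (SE), with adjusted p of 0.27 and 0.133. Wild type high fat pool 3 was the highest pool for both, at 0.55 and 0.68.

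The 7 beaded, network and fibril-associated collagens gave no call on the high fat diet, with 2 differences above 0 and 5 below and a median of -0.31. Col12a1, which encodes a fibril-associated collagen of tendon and loaded tissue, had the smallest p among them. Its values were -0.10, -0.16 and -0.07 in wild type pools and 0.10, 0.06 and -0.01 in null casein pools, and 0.02, -0.08 and 0.01 in wild type pools and 0.35, 0.10 and 0.21 in null high fat pools. Null pools were above wild type pools within each diet. The difference was small, 0.24 ± 0.08 (SE), with an adjusted p of 0.085 on the high fat diet, and the gene's 4 probe sets did not go one way, running from -0.07 to 0.99. Col16a1, another fibril-associated chain, also had its null pools above its wild type pools on the high fat diet (0.66 ± 0.30, adjusted p 0.208). The 3 type VI chains, Col6a1, Col6a2 and Col6a3, form beaded microfibrils around adipocytes. Their differences were -0.33 ± 0.19, -0.31 ± 0.23 and -0.39 ± 0.22 (SE), with adjusted p between 0.322 and 0.447, and the genotypes overlapped for each.

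Elastic fibre genes divided. Of 6 measured members, Mfap4 and Fbln1 rose in null high fat pools, none fell, and 3 were above and 3 below 0. Mfap4 encodes a microfibril-associated protein of elastic fibres that is abundant around smooth muscle. It read 0.03, -1.01 and -1.14 in wild type pools and -0.03, 0.39 and 0.29 in null casein pools. Under high fat feeding it read -0.60, -0.67 and -1.11 in wild type pools and 0.58, 0.35 and 0.81 in null pools. The high fat groups did not overlap, while on casein wild type pool 1 lay above null pool 1. The difference on the high fat diet was 1.38 ± 0.28 (SE; 95% interval 0.76 to 1.99), or 2.59-fold, with an adjusted p of 0.0281, from 1 probe set.

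Fbln1 encodes fibulin 1, a glycoprotein of elastic fibres and basement membranes. Its pools read -0.07, -0.29 and -0.48 in wild type pools and -0.02, 0.47 and 0.06 in null on casein, and 0.07, -0.52 and -0.90 in wild type pools and 0.32, 0.40 and 0.47 in null on the high fat diet. Null pools were above wild type pools within each diet. On the high fat diet it rose by 0.85 ± 0.22 (SE), or 1.8-fold, with an adjusted p of 0.0486, and its 3 probe sets gave differences from 0.16 to 1.25. Mfap2, a microfibril glycoprotein gene, read 0.10, -0.26 and -0.75 in wild type pools and 0.06, 0.03 and 0.24 in null casein pools, and -0.47, -0.27 and -0.40 against 0.13, 0.38 and 0.28 on the high fat diet. The high fat groups were apart, but its difference of 0.65 ± 0.18 had an adjusted p of 0.056.

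Relatives of these genes did not pass. Mfap5, another microfibril glycoprotein gene, differed by -0.49 ± 0.22 (adjusted p 0.208) and Fbln2, which encodes fibulin 2, by -0.25 ± 0.10 (adjusted p 0.146) on the high fat diet. Mfap4 minus Mfap5 ran from -1.60 to -0.65 in wild type and from 0.41 to 1.41 in null pools on that diet. Fbln1 minus Fbln2 ran from -1.19 to -0.20 in wild type and from 0.21 to 0.60 in null pools. Mfap4 and Fbln1 were already apart between genotypes on that diet, so these pair differences only describe the pools. Eln, which encodes elastin itself, differed by -0.11 ± 0.08 (adjusted p 0.486).

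Bgn was the one small leucine-rich proteoglycan gene of 5 to pass. It encodes biglycan, which binds collagen fibrils and, when released, can act as an inflammatory signal. Bgn read -0.20, -0.44 and -0.24 in wild type pools and 0.07, 0.03 and -0.03 in null casein pools, and -0.09, -0.06 and 0.17 in wild type pools and 0.40, 0.37 and 0.50 in null high fat pools. Null pools were above wild type pools on each diet, and high fat pools above casein pools in each genotype. The genotype difference on the high fat diet was 0.42 ± 0.09 (SE), or 1.34-fold, with an adjusted p of 0.0316. Its 3 probe sets were within 0.40 to 0.44. Dcn, which encodes decorin, the closest relative of biglycan, differed by 0.00 ± 0.17 (SE; 95% interval -0.37 to 0.38) and Lum, which encodes lumican, by 0.09 ± 0.23. Dcn and Lum are neighbours on chromosome 10, and Dcn minus Lum stayed between -0.25 and 0.37 over the 12 pools.

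None of the 6 matricellular and adhesive genes passed on the high fat diet. Tnc encodes tenascin C, an adhesion-modulating protein of healing and developing tissue. It read 0.15, -0.52 and -0.59 in wild type pools and 0.97, 0.52 and 0.86 in null casein pools, and -0.89, -0.91 and -0.17 in wild type pools and -0.15, 0.86 and 1.05 in null high fat pools. The genotypes did not overlap on either diet, but on the high fat diet null pool 1 was just above wild type pool 3. The high fat difference was 1.24 ± 0.33 (SE) with an adjusted p of 0.0512, and both probe sets were higher, by 0.56 and 1.93. Thbs1 and Thbs2 encode thrombospondins, which restrain vessel growth; they differed by 1.05 ± 0.47 and -0.53 ± 0.36, with adjusted p of 0.195 and 0.403. Thbs1 minus Thbs2 lay between -1.58 and -0.66 in wild type and between 0.00 and 0.98 in null high fat pools. Thbs1 was already apart between genotypes on that diet, so this pair difference only describes the pools. Fn1, Postn and Sparc, for fibronectin, periostin and osteonectin, had adjusted p between 0.188 and 0.725.

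Pcolce2 had the largest difference of the 43 genes on the high fat diet. It encodes an enhancer of the protease that trims the C-terminal propeptide from fibrillar procollagen. Its pools read -0.20, 0.49 and 0.00 in wild type pools and -0.14, -0.53 and -0.73 in null on casein, and 1.01, 1.62 and 2.90 in wild type pools and 0.51, 0.00 and -0.71 in null on the high fat diet. The 3 wild type high fat pools were the 3 highest of the 12. Means on that diet were 1.84 ± 0.96 (SD, n = 3) and -0.07 ± 0.61 (SD, n = 3), and Pcolce2 fell by 1.91 ± 0.44 (SE), or 3.75-fold, with an adjusted p of 0.0372, from 1 probe set. Its relative Pcolce, for the first such enhancer, differed by 0.66 ± 0.28 (adjusted p 0.176), and its null pools lay above its wild type pools. Pcolce2 minus Pcolce ran from 1.62 to 3.11 in wild type and from -1.38 to 0.44 in null high fat pools. Both genes were already apart between genotypes on that diet, so this pair difference only describes the pools. Lox and Loxl1, for crosslinking oxidases, and Serpinh1, for the collagen chaperone HSP47, had adjusted p of 0.379, 0.531 and 0.947.

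**Figure D3:**
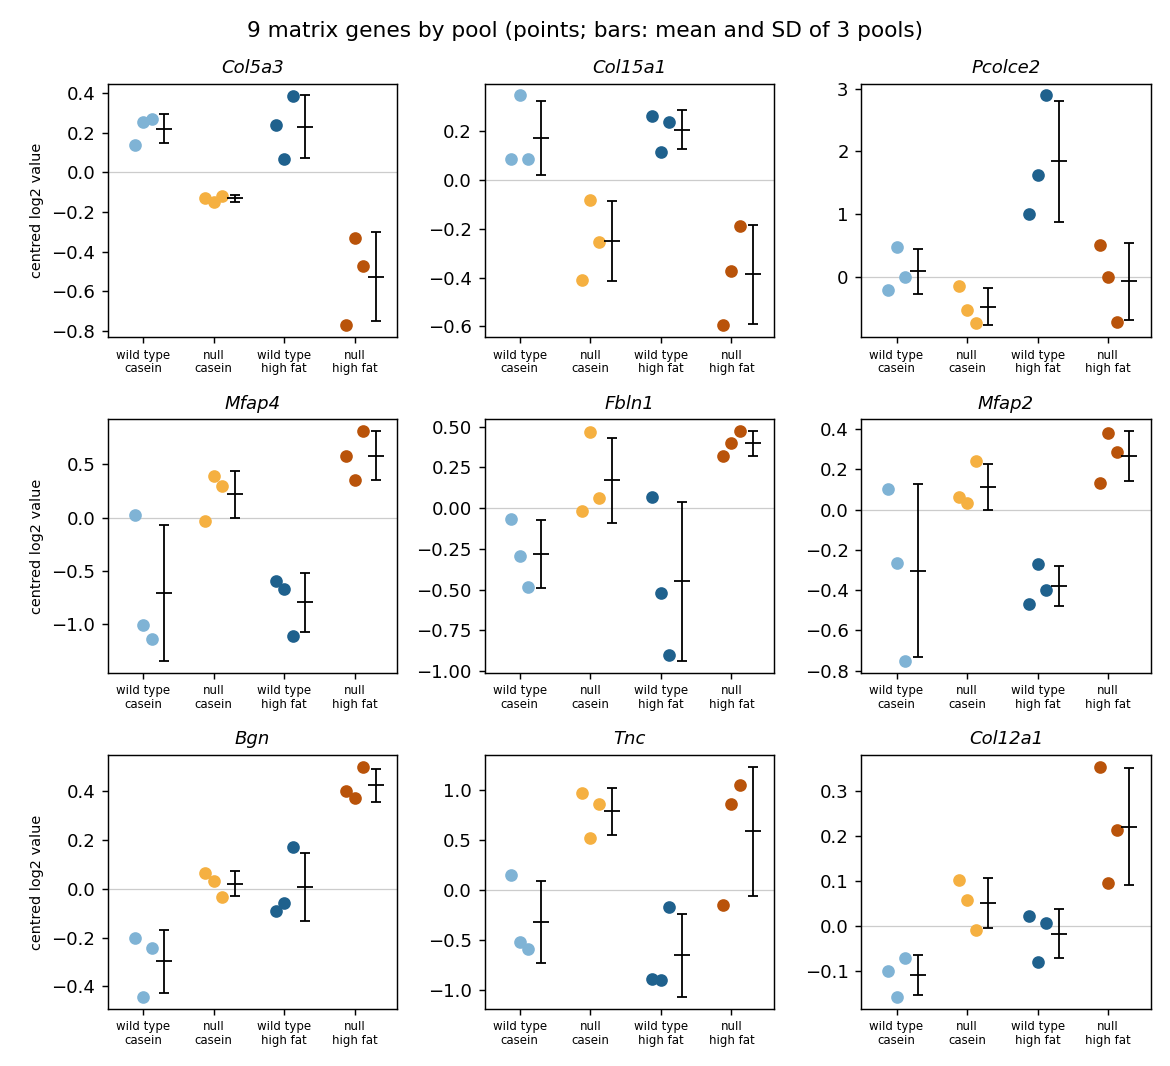
Centred log2 values (y axis) of 9 matrix genes in the 3 pools of each of the 4 groups (x axis); points are pools and the bars beside them the mean and SD of 3 pools. The 6 null pools lie below the 6 wild type pools for Col5a3 and Col15a1, and for Mfap4, Fbln1, Mfap2, Bgn, Tnc and Col12a1 the null pools lie above the wild type pools on the high fat diet.

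On casein, 0 of the 43 genes passed between genotypes in limma, as did 0% of all genes. At an unadjusted p under 0.05 there were 6 members, beside 8.12% of all genes: Bgn, Tnc, Mfap4 and Mfap2 higher and Col15a1 and Col5a3 lower in null pools. The groups did not overlap for 8 members, beside 12% of all genes. Differences were above 0 in 26 of 43, beside 46.1% of all genes, with a median of 0.08, which turned to -0.06 without wild type casein pool 3. Col5a3 differed by -0.35 ± 0.11 (SE) and Col15a1 by -0.42 ± 0.12, with adjusted p of 0.549 and 0.542. Bgn differed by 0.32 ± 0.09 and Tnc by 1.11 ± 0.33, with adjusted p of 0.542 each. Without wild type casein pool 1, the pool with high Mfap4, Mfap4 passed (adjusted p 0.0324).

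With the genotype difference averaged over both diets, 9 members passed (20.9%, beside 7.52% of all genes). The 6 that rose stand beside 4.09% of all genes: Bgn (0.37 ± 0.06 SE, adjusted p 0.0162), Col12a1 (0.20 ± 0.05, 0.0494), Fbln1 (0.65 ± 0.16, 0.0358), Mfap2 (0.53 ± 0.12, 0.0345), Mfap4 (1.15 ± 0.20, 0.016) and Tnc (1.18 ± 0.23, 0.022). Col15a1 (-0.51 ± 0.09, 0.016), Col5a3 (-0.55 ± 0.08, 0.0102) and Pcolce2 (-1.24 ± 0.31, 0.0416) were the 3 that fell, beside 3.42% of all genes. The 6 genes called on the high fat diet alone were all among them, and both comparisons share those pools. In 2 members, Col5a3 and Col15a1, every null pool lay below every wild type pool, beside 1.8% of all genes. Leaving out each pool in turn left Col5a3 and Col15a1 called in 12 of 12 fits, Bgn and Mfap4 in 11, Tnc in 7, Fbln1, Mfap2 and Pcolce2 in 4 and Col12a1 in 0. The count was 2 without null casein pool 2, 4 without wild type casein pool 2, null casein pool 3, null high fat pool 2 or null high fat pool 3, and 5 without wild type high fat pool 2 or 3. The shares of all genes called in these fits are likewise not given here.

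**Figure D4:**
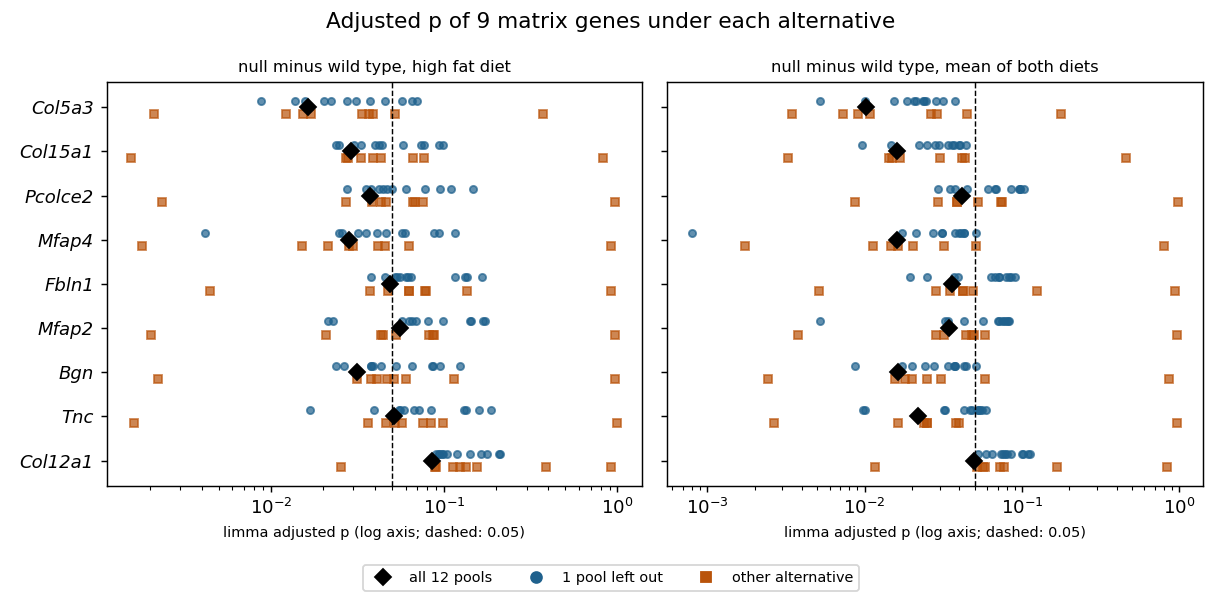
Adjusted p from limma (x axis, log scale, dashed line at 0.05) of 9 matrix genes (y axis) for the genotype difference on the high fat diet (left) and averaged over both diets (right); diamonds are all 12 pools, circles leave out 1 pool, squares are the other alternatives. In the right panel the circles of Col5a3 and Col15a1 all lie under 0.05, while those of Col12a1 all lie above it.

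The diet itself moved no member past the threshold. In wild type mice 0 of 43 passed in limma (0% of all genes), with 5 at an unadjusted p under 0.05, all higher on the high fat diet, beside 7.61% of all genes. They were Pcolce2 (1.75 ± 0.44 SE), Fbln2 (0.35 ± 0.10), Bgn (0.30 ± 0.09), Thbs2 (0.83 ± 0.36) and Serpinh1 (0.31 ± 0.14), with adjusted p from 0.529 to 0.652. Differences were above 0 in 37 of 43 members, beside 50.3% of all genes, with a median of 0.19. High fat pools lay above every casein pool for 6 members (Bgn, Dcn, Fbln2, Nid1, Pcolce2 and Postn), beside 7.07% of all genes, and below for 0, beside 4.86%. All 8 basement membrane genes (median 0.17) and all 5 proteoglycan genes (median 0.36) were above 0. Wild type casein pool 3 was low for many members and had the lowest median of the 43 genes in any pool, -0.31, while the other 11 pools lay between -0.12 and 0.20.

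In null mice the high fat diet likewise gave 0 calls (0% of all genes), with 4 members at an unadjusted p under 0.05, beside 4% of all genes. Bgn (0.40 ± 0.09 SE), Fn1 (0.39 ± 0.16) and Col12a1 (0.17 ± 0.08) were higher and Col5a3 (-0.39 ± 0.11) lower on the high fat diet, each with an adjusted p of 1. Differences were above 0 in 23 of 43, beside 49.9% of all genes, with a median of 0.02, and 5 members were without overlap, beside 10.6%: Bgn higher, and Col4a2, Col5a3, Lamc1 and Sparc lower. All 8 basement membrane genes were below 0, with a median of -0.17, the other side of 0 from wild type mice. Averaged over both genotypes, 0 members passed for diet (0.0055% of all genes, or 1 gene), with 5 at an unadjusted p under 0.05, beside 5.23%. Bgn had the smallest p there, at 0.35 ± 0.06 with an adjusted p of 0.277.

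Whether the diet change differed between genotypes was tested by the interaction, in which 0 members passed (0% of all genes). Col5a3 (-0.40 ± 0.16 SE), Col4a2 (-0.53 ± 0.23) and Nid1 (-0.68 ± 0.30) had an unadjusted p under 0.05, beside 6.12% of all genes, and an adjusted p of 0.789 each. Values were above 0 in 13 of 43 members, beside 49% of all genes, with a median of -0.23, and all 8 basement membrane genes were below 0. For Pcolce2 the interaction was -1.35 ± 0.62. A different genotype effect on the 2 diets was therefore not shown for any member, although the high fat comparison had calls and the casein comparison had none.

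Genes around the matrix were read from lists of the wider pathway. Of 22 measured collagen synthesis enzymes and chaperones, 1 rose on the high fat diet, Rcn3, for a secretory pathway calcium-binding protein (0.72 ± 0.16 SE, adjusted p 0.0316), and none fell. That is 4.55% of the list, beside 5.92% of all genes called. Averaged over the diets 5 rose, beside 4.09% of all genes; the largest changes were in Rcn3, P3h3, Ppib and Loxl3. Of 24 TGF-beta pathway genes 4 rose and 0 fell on the high fat diet, beside 3.21% of all genes that rose and 2.71% that fell: Inhba, for an activin subunit (1.96 ± 0.50 SE, adjusted p 0.0472), Ccn2, for a matricellular TGF-beta target (1.79 ± 0.39, 0.0316), the repressor gene Tgif1 (1.70 ± 0.36, 0.0307) and the target Tgfbi (0.42 ± 0.09, 0.0313). Inhba is also a marker on the ovary list below. Among 24 matrix receptors, 2 rose and 1 fell, beside the same 3.21% and 2.71%: the integrin genes Itga8 (0.83 ± 0.18, 0.0316) and Itga9 (0.71 ± 0.13, 0.0229) rose and Itga7 (-0.73 ± 0.18, 0.045) fell.

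Of 23 matrix proteases and inhibitors 3 rose and 2 fell on that diet, beside 3.21% and 2.71% of all genes. Mmp11, for stromelysin 3, rose by 2.12 ± 0.46 (SE; adjusted p 0.0316) and Plat, for tissue plasminogen activator, by 0.87 ± 0.17 (0.0261), while Adamts5, for an aggrecan-cleaving protease, fell, at -1.01 ± 0.12 (0.00908), as did Mmp19, at -0.76 ± 0.15 (0.0268). Of 42 matrix genes outside the 43, 6 rose and 2 fell, beside the same shares. Fbn2 for fibrillin 2 (2.82 ± 0.67, 0.0404), Col11a1 for a fibrillar collagen chain (1.65 ± 0.31, 0.0241) and Col4a5 for a type IV collagen chain of basement membranes (1.40 ± 0.27, 0.0261) rose, and Emilin2 for an elastic fibre glycoprotein (-1.04 ± 0.15, 0.0161) fell. Other basement membrane genes of this list that passed, chosen here after their values were seen, were Col4a6, a further type IV chain, which rose (0.57, 0.0466), and Nid2, for the other nidogen, which fell (-0.95 ± 0.20, 0.0299). The basement membrane genes outside the 43 that passed thus went both ways. The medians of these 5 lists on the high fat diet ran from -0.12 to 0.15. Between the high fat diet and casein, 0 of their genes passed in limma in either genotype (0% of all genes). At an unadjusted p under 0.05 there were 2 to 7 genes a list in wild type, beside 7.61% of all genes, and 1 to 3 in null mice, beside 4%. In wild type mice the 7 were among 23 matrix proteases and inhibitors, all higher on the high fat diet, and 2 were among 22 collagen synthesis enzymes.

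Markers of other tissues and cell types moved with the same comparison. Of 22 ovary, oviduct and uterus markers, 9 rose and 0 fell in null high fat pools, with a median difference of 1.45; over all genes 3.21% rose and 2.71% fell, which is also the background of the marker counts that follow. The median of that list was between -0.96 and -0.75 in the wild type and between 0.14 and 0.84 in the null pools on that diet; on casein it was between -1.01 and 0.25 and between -0.02 and 0.32. Smooth muscle and pericyte markers (13 genes, 3 rose, 0 fell) had medians of -0.25 to 0.03 in wild type pools and 0.12 to 0.78 in null high fat pools, but the list split. Its null pools were wholly above the wild type pools for 7 genes and wholly below for 4, the pericyte markers Rgs5 (-0.72 ± 0.19 SE, adjusted p 0.0521), Abcc9 (-0.49 ± 0.16, 0.0905), Kcnj8 (-0.38, 0.0783) and Notch3 (-0.34 ± 0.14, 0.167). Mature adipocyte markers (14 genes, 6 fell) had medians of 0.19 to 0.26 in wild type pools and -0.52 to -0.04 in null pools. Endothelial markers (15 genes, 4 fell) had medians of 0.25 to 0.59 and -0.29 to 0.00. None of the medians of these 4 lists overlapped between genotypes on the high fat diet. The first 2 were higher in null pools and the last 2 were lower. Matrix genes went both ways within roles: elastic fibre genes had 3 differences above and 3 below 0. The matricellular and adhesive genes also had 3 above and 3 below, while all 8 basement membrane genes were below. Of these lists, only the ovary median entered a fit, given below with the skeletal muscle and liver medians. The part of the smooth muscle, adipocyte and endothelial lists in the differences of the matrix genes was not tested.

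Of 13 mesothelial markers 2 rose (Wt1 and Clu), of 14 fibroblast and progenitor markers 1 rose (Tcf21) and 1 fell (Ebf1), and none of 20 macrophage, 24 skeletal muscle, 17 liver or 12 lymphocyte markers passed. The last 3 lists were uneven between single pools: the liver median was 4.41 and the lymphocyte median 1.56 in wild type casein pool 3, and the skeletal muscle median was 4.58 in wild type high fat pool 2 and 3.66 in null high fat pool 1. Without those 3 pools, 3 members passed on the high fat diet, Col5a3, Mfap2 and Tnc, and 5 averaged over the diets, Col5a3, Col15a1, Mfap2, Tnc and Pcolce. With the medians of the ovary, skeletal muscle and liver lists as covariates, 0 members passed in limma, with 5 at an unadjusted p under 0.05, in a fit with 5 residual degrees of freedom. In that fit the high fat difference was -0.84 for Col5a3 (adjusted p 0.37) and -0.55 for Col15a1 (0.825), against -0.76 and -0.59 without covariates. It was -0.96 for Pcolce2 (0.972), against -1.91. Of the genes that were higher, Mfap4 was at 0.48 (0.918), Tnc at 0.14 (0.998), Mfap2 at 0.22 (0.973), Bgn at 0.20 (0.968), Fbln1 at 0.64 (0.923) and Col12a1 at 0.29 (0.918), against 1.38, 1.24, 0.65, 0.42, 0.85 and 0.24. Shares of all genes called with the covariates, or without the 3 pools, are not given here. A loss of calls particular to the matrix genes is therefore not shown. In the high fat groups the ovary list and the genotype separate the same pools and cannot be told apart.

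**Figure D5:**
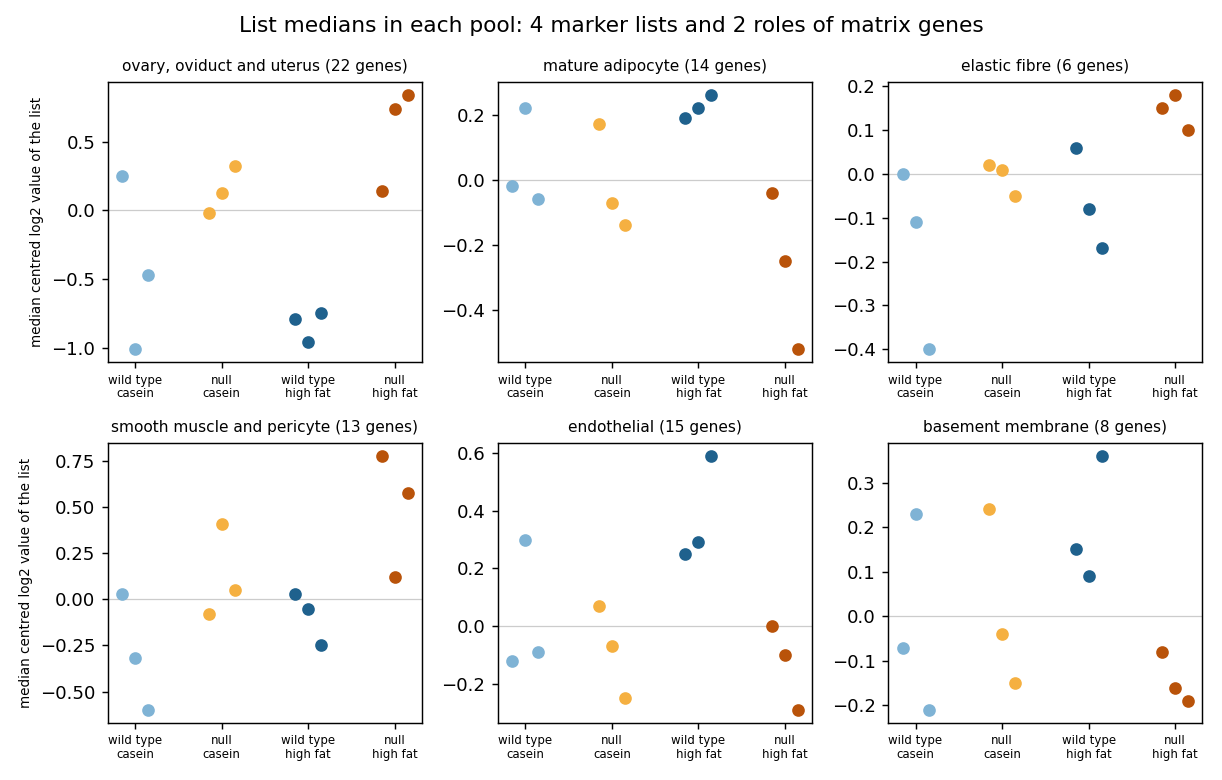
Median centred log2 value (y axis, scaled separately in each panel) of 4 marker lists and of the elastic fibre and basement membrane members in each pool (points) of the 4 groups (x axis). On the high fat diet the ovary, smooth muscle and elastic fibre medians of the null pools lie above those of the wild type pools. The adipocyte, endothelial and basement membrane medians lie below. The elastic fibre genes themselves split, with 3 differences above and 3 below 0 on that diet.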

How the data were processed

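Gene expression in 12 pools of abdominal fat pads was measured on Affymetrix arrays, 8 ug of total RNA per labelling. GCOS and RMA were used, per the submitters' processing notes; genome build and scan dates are not given in the sources used here. The deposited table holds RMA log values, taken as log2 although the base is not stated, and the authors' table is centred: each probe set had a median of 0 across the 12 arrays (tolerance 1e-06). Level, background and depth therefore cannot be read, and the number of pools limits the precision. No 2 arrays held identical values.

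Of 45101 probe sets, 34958 carried 1 gene symbol, 932 several and 9211 none in the platform annotation; 34754 matched RefSeq (GRCm38.p6). Probe sets with 1 gene were averaged to 18194 genes. For 34 members with several probe sets, 27 had all of them on one side of 0 on the high fat diet; Col12a1, Col8a1, Dcn, Fn1, Lamb1, Ogn and Serpinh1 did not. Groups came from the labels. Differences were tested two-sided with limma 3.58.1 (R 4.3.3, lmFit, eBayes) in 1 fit of 4 group means with 8 residual degrees of freedom. P-values were adjusted by Benjamini-Hochberg over all genes, threshold 0.05. The fit was also run on simulated data with independent noise for each gene and pool, and its outcome is not given here. Those data held no tissue differences shared by genes, so the run does not bear on the calls above. Values in every pool are given for members past the threshold in any comparison and for the member with the smallest p on the high fat diet in each role. From a pathway list at most 4 genes that passed with the largest change are named with values. Col4a6 and Nid2 were added to these after their values were seen. Members, lists and tests were chosen with earlier results of these data known.

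Pool numbers did not pair the pools: correlations between pools of the same number ran from -0.615 to 0.59, and 4 of 12 pools correlated best with their own number. Alternatives were the probe set with the widest span, renewed quantile normalization, array weights, robust moderation, a filter on span, only the arrays compared, the pool number as a block, marker medians as covariates, leaving out 3 pools, and leaving out each pool in turn.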

Additional observations from a re-analysis of the deposited data

How the results depend on the processing

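The members called between genotypes on the high fat diet numbered 6, and 0 to 8 without each pool in turn. The count was 3 after quantile normalization again (Bgn, Mfap4 and Pcolce2), 18 with array weights, 0 with the tissue marker medians as covariates and 3 without the 3 pools named above. With the genotype difference averaged over both diets it was 9, and 2 to 11 without each pool in turn, 15 with array weights, 0 with the covariates and 5 without the 3 pools. On casein it was 0, and 0 to 1 without each pool in turn. The diet change in null mice gave 0, and 1 with array weights. The diet change in wild type mice, the interaction and the diet change averaged over genotypes gave 0 under all alternatives run. With the pool number as a replicate block the high fat count was 5 (Bgn, Col15a1, Col5a3, Mfap4 and Nid1) and the averaged count 6. Of the 9 genes followed in the 3 genotype comparisons, 0 changed sign. The median difference of the members on the high fat diet moved from -0.25 to 0.01 with the covariates, and on casein from 0.08 to -0.06 without wild type casein pool 3. Taking the probe set with the widest span gave Col12a1 a high fat difference of 0.99 in place of 0.24. The share of all genes called under each alternative is not given here, so no count shows a shift particular to the matrix genes. The cause of these shifts was not tested. With 3 pools a group, centred values and no measure of signal over background, low-signal probe sets could not be removed.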
